A study of Mus musculus with 8 samples.

Results

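The cell division cycle is run by cyclins, which switch on cyclin-dependent kinases (CDKs), by CDK inhibitors that hold these kinases back, and by the E2F transcription factors, which pair with DP proteins and are kept in check by the pocket proteins Rb1, Rbl1 and Rbl2. Before DNA is copied, replication origins are licensed: the origin recognition complex (ORC), Cdc6 and Cdt1 load the MCM helicase, and geminin (Gmnn) blocks reloading. Embryonic stem cells cycle fast with a short G1 phase, and G1 lengthens as they differentiate. The 47 genes described here cover these roles and were taken as a list of names, 47 of the 21911 protein-coding genes in the GENCODE M21 annotation. They fall into 14 roles, and for each of them the question was whether FGFR1, RXR, Nur77 or histone H3.3 had a ChIP-seq peak at its promoter.

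ChIP-seq recovers DNA cross-linked to a protein with an antibody, and places where the sequenced fragments pile up are listed as peaks. Peak lists of 8 libraries were used, all made in E14Tg2a, a line of mouse embryonic stem cells, used at passages 37 to 40. FGFR1, RXR and Nur77 were each profiled in pluripotent cells kept in leukemia inhibitory factor (LIF, ESCs) and in monolayers without LIF that received 1 µM retinoic acid (RA) for 48 h (neuronal cells, NCs), and H3.3 in NCs only. FGFR1 (antibody ab10646) is a growth factor receptor that also enters the nucleus, RXR (SC-774) and Nur77 (SC-5569) are nuclear receptors, and H3.3 (ab62642) is a histone variant found at active promoters. FGFR1 in RA had 2 libraries, called replicates 1 and 2, the second titled as a separate experiment. The other 6 groups had 1 library each, made from pooled plates of a single cell line, so the spread between these 2 libraries is the only replicate error and LIF was not tested against RA.

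A member counted as having a promoter peak where a peak overlapped the 1000 bp on either side of any of its transcript starts by at least 20 bp. A pair of values from the lists describes a peak. The fold is the pileup of fragments at the summit over the local background, and −log10 p is the Poisson p-value of that pileup, for which the peak caller's limit lay at 5. Both move with sequencing depth, so −log10 p values from different lists do not compare the strength of binding. For some members the place of a peak in the ranking of its own list is given beside them. The lists state no depth. Solving fold and −log10 p together for whole fragments, with the shortest peak taken as the fragment length, gave backgrounds of 1.27 (H3.3 RA) to 7.09 (RXR LIF) fragments per kb and between 10634 and 46137 peaks per list. RXR RA, at 1.87 per kb, was much shallower than RXR LIF, and replicate 2 of FGFR1 RA (6.78) was deeper than replicate 1 (4.16) and FGFR1 LIF (2.71). Where the background was lowest, 4 to 8 fragments sufficed for a peak, depending on the library, and a gene without a listed peak was below that limit rather than shown to be free of the protein.

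Stretches from 6 promoters are shown first, since the values below refer to them: Cdkn1a, Ccnb1, Cdk1 and Tfdp2 for the high rank of a peak, and Ccnb2 and Tfdp1 for peaks in 7 libraries. They were cut from peaks of FGFR1 RA replicate 2, except Ccnb1 (FGFR1 RA replicate 1) and Tfdp1 (RXR RA). For Tfdp2 the high rank (top 4.65%) was that of its replicate 1 peak, chr9:96196191-96196525, which covers only the later part of the stretch. Its printed replicate 2 peak was in the top 29.2%. Each line gives the part of a peak outside coding and untranslated exons, at most 200 bases, 5′ to 3′ on the gene's own strand in build mm10 (GRCm38). Capitals mark the searched words described further below, except in Tfdp1, where they mark a run of alternating purines and pyrimidines. The Cdkn1a, Ccnb2, Cdk1 and Tfdp2 stretches end at the base before an annotated transcript start, and those of Ccnb1 and Tfdp1 end 129 and 150 bp before one.

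Cdkn1a, chr17:29093569-29093768, plus strand: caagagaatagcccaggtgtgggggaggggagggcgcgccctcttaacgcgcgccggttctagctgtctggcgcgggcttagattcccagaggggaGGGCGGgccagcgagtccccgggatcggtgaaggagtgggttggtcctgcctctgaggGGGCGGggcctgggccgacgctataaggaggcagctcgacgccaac
Ccnb1, chr13:100786699-100786839, minus strand: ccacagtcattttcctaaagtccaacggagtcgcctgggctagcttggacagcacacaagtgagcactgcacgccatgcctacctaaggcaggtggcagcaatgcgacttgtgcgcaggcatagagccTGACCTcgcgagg
Ccnb2, chr9:70421548-70421684, minus strand: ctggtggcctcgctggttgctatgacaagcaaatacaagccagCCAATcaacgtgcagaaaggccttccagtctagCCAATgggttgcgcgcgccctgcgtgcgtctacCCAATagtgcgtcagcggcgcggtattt
Cdk1, chr10:69352939-69353110, minus strand: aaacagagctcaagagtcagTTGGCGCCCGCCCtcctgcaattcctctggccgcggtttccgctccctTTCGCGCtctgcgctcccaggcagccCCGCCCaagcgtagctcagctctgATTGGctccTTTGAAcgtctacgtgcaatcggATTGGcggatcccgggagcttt
Tfdp1, chr8:13338402-13338601, plus strand: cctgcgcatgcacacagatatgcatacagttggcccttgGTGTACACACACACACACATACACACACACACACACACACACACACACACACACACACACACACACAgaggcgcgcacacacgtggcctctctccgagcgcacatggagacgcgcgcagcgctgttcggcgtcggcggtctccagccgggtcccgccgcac
Tfdp2, chr9:96196075-96196274, plus strand: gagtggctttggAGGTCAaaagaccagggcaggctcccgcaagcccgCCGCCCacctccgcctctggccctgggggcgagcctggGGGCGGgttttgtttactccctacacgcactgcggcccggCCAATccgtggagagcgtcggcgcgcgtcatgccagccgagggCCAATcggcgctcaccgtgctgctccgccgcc

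The Cdk1 stretch, from the gene of the kinase that drives entry into mitosis, held 2 E2F words, 2 GC boxes, 2 CCAAT boxes (as ATTGG) and the cell cycle homology region TTTGAA between them. The Ccnb2 stretch held 3 CCAAT boxes, the arrangement known from G2 and M phase genes. The Cdkn1a stretch held 2 GC boxes, Tfdp2 held 2 CCAAT boxes, 2 GC boxes and a nuclear receptor word, and Ccnb1 held a single nuclear receptor word (as TGACCT). In Tfdp1 the alternating run was 67 bases long, and an E-box, CACGTG, lay at bases 119 to 124, in lower case.

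Nearly all members had a promoter peak of some kind, and FGFR1 in RA gave most of them. 46 of the 47 (97.9%) had a promoter peak in at least 1 library, against 65.5% of all protein-coding genes. FGFR1 had a promoter peak at 9 members in LIF (19.1%, all genes 17.0%), and in RA at 39 in replicate 1 (83.0%, all genes 50.8%) and 41 in replicate 2 (87.2%, all genes 49.6%). The mean in RA was 40.0 ± 1.41 members (SD, n = 2 libraries), or 85.1% ± 3.01, against 50.2% ± 0.800 of all genes. RXR moved the other way, with 31 members in LIF (66.0%, all genes 42.5%) and 14 in RA (29.8%, all genes 23.3%). Nur77 had 15 members in LIF (31.9%, all genes 25.5%) and 17 in RA (36.2%, all genes 25.8%). H3.3 had 7 members in RA (14.9%, all genes 15.5%), so its share lay at that of all genes. The gain of FGFR1 promoter peaks and the drop of RXR promoter peaks were both present over all genes too.

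**Figure D1:**
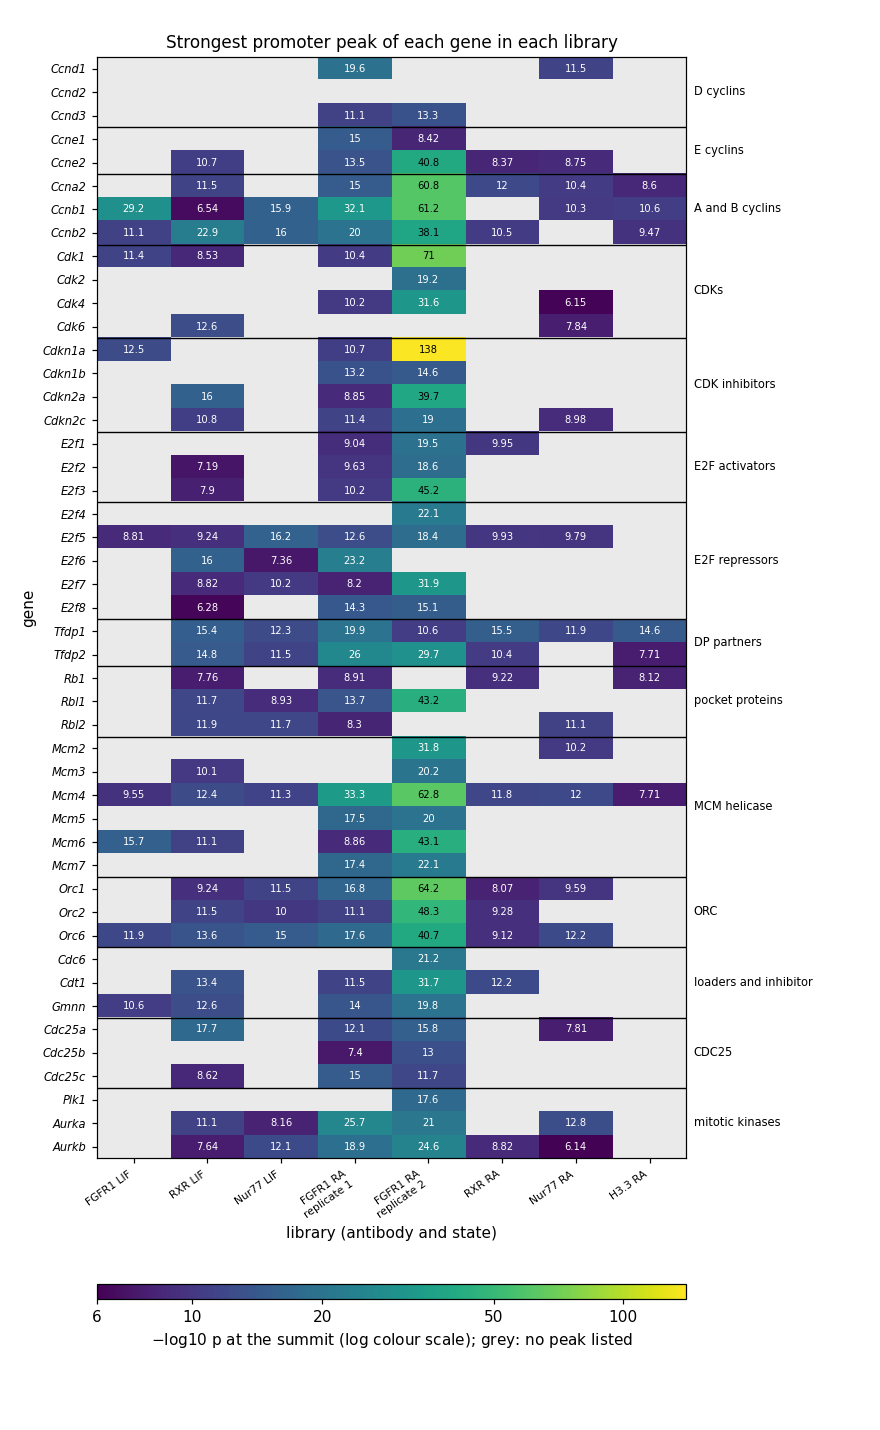
Each row is 1 of the 47 members, grouped by role, and each column is a library. The number and the colour (log scale) give the −log10 p of the strongest promoter peak and grey marks no listed peak. The 2 FGFR1 RA columns are the fullest, Mcm4 is filled in all 8 columns and Ccnd2 in none.

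The distance from all genes was smaller among promoters of the same sequence type. CpG-rich promoters are typical of genes used in most cells, and here a promoter was called CpG-rich if the 300 bases at any coding transcript start (250 upstream, 50 downstream) had a CpG observed over expected of at least 0.6 and a GC content of at least 50%. 42 of the 47 members (89.4%) but 51.5% of all genes passed. The 5 others were Ccnd1, Ccnd2, Cdkn2c, E2f2 and Mcm3. Among CpG-rich genes alone, FGFR1 in RA was at 85.7% and 90.5% of the 42 members against 78.2% and 79.7% of all 11241, an excess smaller than over all genes. RXR in LIF was at 66.7% against 67.4%, Nur77 in LIF at 35.7% against 40.1%, and Nur77 in RA at 35.7% against 40.4%. FGFR1 in LIF (21.4% against 28.4%), RXR in RA (33.3% against 37.6%) and H3.3 (16.7% against 25.4%) were below the share of all CpG-rich genes. Members also had wider promoter windows, with a median of 5182 bp against 4002 bp, since more transcripts are annotated for them (median 5 against 3). Among CpG-rich genes with windows of at least 4000 bp, FGFR1 in RA was at 87.9% of 33 members in both replicates. The shares of all 7455 such genes were 81.7% and 81.9%.

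A list of 61 other genes, called other cell cycle genes here, was counted beside the members. It held genes such as Pcna, Wee1, Cdc20 and the GINS subunits, and further cyclins and CDKs taken by family name, such as Ccnt2 and Cdk9. FGFR1 had promoter peaks at 17 of the 61 in LIF (27.9%) and at 50 (82.0%) and 58 (95.1%) in RA. RXR had 45 in LIF (73.8%) and 24 in RA (39.3%), Nur77 had 19 (31.1%) and 24 (39.3%), and H3.3 had 14 (23.0%). These shares were higher than those of the members in every library but Nur77 LIF and FGFR1 RA replicate 1, and the differences were not tested. Ccnt2, Orc3, Gins1, Rpa1 and Wee1 of this list (8.20%) had a promoter peak in all 8 libraries, and Ccnb3 and Aurkc in none.

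**Figure D2:**
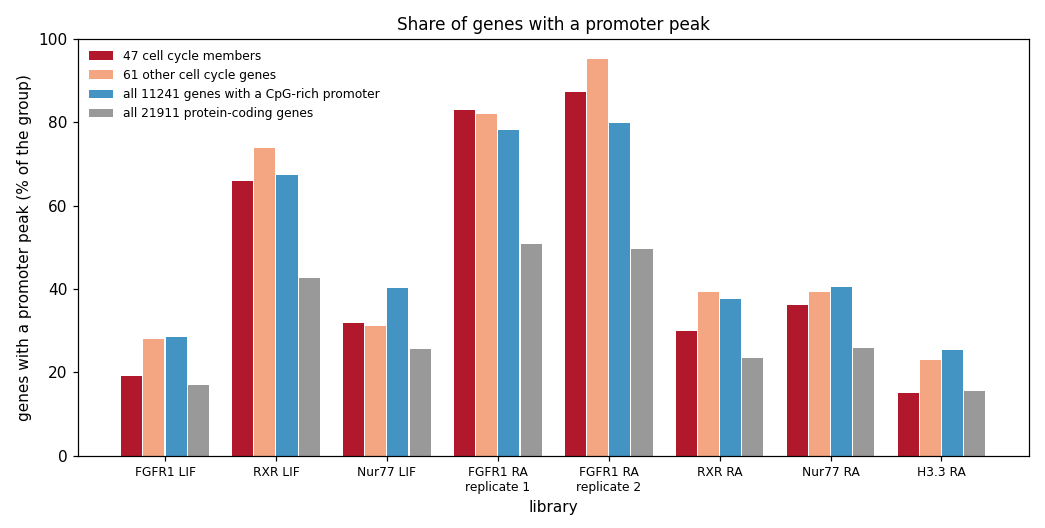
Bars give the percentage of genes with a promoter peak in each library for the 47 members, the 61 other cell cycle genes, all 11241 genes with a CpG-rich promoter and all 21911 protein-coding genes. The members stand well above all genes in the 2 FGFR1 RA libraries and in RXR LIF. They are close to or below the CpG-rich genes in every library, RXR LIF included, except the 2 of FGFR1 in RA.

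Of the D cyclins, which respond to mitogens in G1, Ccnd2 had no promoter peak in any library, as did 34.5% of all genes. Ccnd1 had −log10 p of 19.6 in FGFR1 RA replicate 1 and 11.5 in Nur77 RA and no peak elsewhere, and Ccnd3 had 11.1 and 13.3 in the 2 FGFR1 RA libraries only. The FGFR1 peak of Ccnd1 was in an intron, 2220 bp downstream of the nearest coding transcript start. No D cyclin had a promoter peak in LIF for any antibody. Ccne1, whose product carries cells into S phase with Cdk2, had 15.0 and 8.42 in the FGFR1 RA libraries and nothing else, in peaks that did not overlap, with summits 72 bp downstream of one transcript start and 341 bp upstream of another. Ccne2 had peaks in 5 libraries, up to 40.8 in FGFR1 RA replicate 2.

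Cyclins A and B, which act in S phase, G2 and mitosis, had promoter peaks in 6 (Ccna2) or 7 (Ccnb1 and Ccnb2) libraries, as did 7.31% and 5.16% of all genes. Ccna2 had −log10 p of 11.5 in RXR LIF, 15.0 and 60.8 in FGFR1 RA replicates 1 and 2, 12.0 in RXR RA, 10.4 in Nur77 RA and 8.60 in H3.3 RA. It lacked FGFR1 and Nur77 peaks in LIF. Ccnb1 had 29.2 in FGFR1 LIF, 6.54 in RXR LIF, 15.9 in Nur77 LIF, 32.1 and 61.2 in FGFR1 RA, 10.3 in Nur77 RA and 10.6 in H3.3 RA, and no RXR peak in RA. Its 7 strongest summits lay within 52 bp of each other, 147 to 199 bp upstream of the start, inside the printed stretch. The FGFR1 peak at Ccnb1 was in the top 8.59% of the LIF list, 2.52% of replicate 1 and 5.38% of replicate 2, so it ranked high in all 3 FGFR1 lists. Ccnb2 had 11.1, 22.9 and 16.0 for FGFR1, RXR and Nur77 in LIF, 19.97 and 38.1 for FGFR1 in RA, 10.5 for RXR in RA and 9.47 for H3.3. The RXR LIF peak at Ccnb2 was the strongest RXR promoter peak of any member.

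Among the CDKs, Cdk1 was alone in having an FGFR1 peak in LIF. Its FGFR1 peaks had −log10 p of 11.4 in LIF, 10.4 in RA replicate 1 and 71.0 in RA replicate 2, with folds of 7.48, 7.002 and 17.4, all within 50 bp of the start. Its RXR LIF peak (8.53) was elsewhere, 596 bp downstream in an intron. Cdk4, the partner of D cyclins, had 10.2 and 31.6 in FGFR1 RA and 6.15 in Nur77 RA, near the peak limit. Cdk2 had only FGFR1 RA replicate 2 (19.2), and this promoter region is shared with Pmel. Cdk6 had 12.6 in RXR LIF and 7.84 in Nur77 RA and no FGFR1 peak.

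All 4 CDK inhibitors had FGFR1 promoter peaks in both RA libraries. Cdkn1a, which encodes the p53 target p21, had an FGFR1 peak of 12.5 in LIF, 10.7 in RA replicate 1 and 138 in RA replicate 2, and no RXR, Nur77 or H3.3 peak. In replicate 2 the summit held 157 fragments at a fold of 16.9, 14 bp from a transcript start, in the top 0.469% of the list, the highest rank of any member in any library. In replicate 1 its stronger peak held 15 fragments at a fold of 6.16 and was in the top 58.5%, and no other member differed as much in −log10 p between the FGFR1 replicates. The LIF and replicate 2 peaks at Cdkn1a also covered an alternating purine-pyrimidine run of at least 20 bp. Cdkn1b (p27) had 13.2 and 14.6 in FGFR1 RA and nothing else. Cdkn2a, the Ink4a/Arf gene, had 16.0 in RXR LIF and 8.85 and 39.7 in FGFR1 RA, but at different transcript starts. The RXR peak and the 8.85 peak had summits at chr4:89282087 and 89282065, where replicate 2 had a peak of 8.91. The 39.7 peak of replicate 2 had its summit at 89294894, near the other start, where replicate 1 had a peak of 6.30. Cdkn2c had 10.8 in RXR LIF, 11.4 and 19.0 in FGFR1 RA and 8.98 in Nur77 RA.

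The activating factors E2f1, E2f2 and E2f3 had FGFR1 promoter peaks in both RA libraries and none in FGFR1 LIF. E2f1 had 9.04 and 19.5, but the summits lay 47 and 256 bp upstream of transcript starts in peaks that did not overlap. E2f1 was also the only member with an RXR promoter peak in RA (9.95) and none in LIF, a pattern found at 3.94% of all genes. The peaks of E2f2 and E2f3 did not overlap between the FGFR1 replicates either. The replicate 2 peak of E2f2 was in a coding exon, 414 bp upstream of an annotated start but 7975 bp downstream of the nearest coding transcript start. Of the repressive E2Fs, E2f4 had only FGFR1 RA replicate 2 (22.1), 9 bp from a start, and E2f6 had RXR LIF (16.0), Nur77 LIF (7.36) and FGFR1 RA replicate 1 (23.2). E2f5 had peaks in 7 libraries, between 8.81 in FGFR1 LIF and 18.4 in FGFR1 RA replicate 2. The latter was in the top 53.2% of its list, whereas the Nur77 LIF peak (16.2) was in the top 14.0% of its own. E2f7 and E2f8, the atypical repressors that bind DNA without DP, had 8.20 and 14.3 in FGFR1 RA replicate 1 and 31.9 and 15.1 in replicate 2.

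The DP partners were occupied in many libraries. Tfdp1 had −log10 p of 15.4 in RXR LIF, 12.3 in Nur77 LIF, 19.9 and 10.6 in FGFR1 RA, 15.5 in RXR RA, 11.9 in Nur77 RA and 14.6 in H3.3 RA, and none in FGFR1 LIF. Its 7 strongest summits were within 138 bp, 195 to 333 bp upstream of the start, and all 7 peaks covered at least 20 bp of an alternating run such as the one printed in capitals above, most of it a CA repeat. Tfdp1 also had the strongest member peak in the RXR RA and H3.3 lists. The part of the repeat in these peaks was not tested. Tfdp2 had 14.8 in RXR LIF, 11.5 in Nur77 LIF, 26.0 and 29.7 in FGFR1 RA, 10.4 in RXR RA and 7.71 in H3.3 RA, and no peak in FGFR1 LIF or Nur77 RA.

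The pocket proteins, which bind and silence E2Fs, had no FGFR1 peak in LIF and differed between the FGFR1 RA libraries. Rb1 had 7.76 in RXR LIF, 8.91 in FGFR1 RA replicate 1, 9.22 in RXR RA and 8.12 in H3.3 RA, all near the limit and none in FGFR1 RA replicate 2. Rbl1 (p107) had 11.7 in RXR LIF, 8.93 in Nur77 LIF and 13.7 and 43.2 in FGFR1 RA. Rbl2 (p130) had 11.9 in RXR LIF, 11.7 in Nur77 LIF, 8.30 in FGFR1 RA replicate 1 and 11.1 in Nur77 RA.

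Of the 6 MCM helicase genes, Mcm4 was the only member with a promoter peak in all 8 libraries, as had 2.90% of all genes. It had 9.55, 12.4 and 11.3 for FGFR1, RXR and Nur77 in LIF, 33.3 and 62.8 for FGFR1 in RA, and 11.8, 12.0 and 7.71 for RXR, Nur77 and H3.3 in RA. The 8 summits fell within 67 bp but 499 to 566 bp upstream of the Mcm4 start. They lay 10 to 77 bp from a start of Prkdc, the gene for the catalytic subunit of DNA-dependent protein kinase, which was nearer in 8 of 8 libraries. The peak thus cannot be given to Mcm4 rather than Prkdc. Mcm6 had 15.7 in FGFR1 LIF, 11.1 in RXR LIF and 8.86 and 43.1 in FGFR1 RA. Mcm5 and Mcm7 had peaks in the 2 FGFR1 RA libraries alone (17.5 and 20.03, and 17.4 and 22.1). Mcm2 had 31.8 in FGFR1 RA replicate 2 and 10.2 in Nur77 RA, and Mcm3 had 10.1 in RXR LIF and 20.2 in FGFR1 RA replicate 2, so neither was listed in replicate 1. The Nur77 RA peak of Mcm2 was in a coding exon, 5824 bp downstream of the nearest coding transcript start.

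All 3 ORC genes had promoter peaks in RXR LIF, Nur77 LIF, both FGFR1 RA libraries and RXR RA. Orc1 had 9.24, 11.5, 16.8, 64.2 and 8.07 in these, and 9.59 in Nur77 RA. Its summits were 36 to 157 bp downstream of a start, in 6 peaks that also lay in the promoter window of Prpf38a. Orc2 had no Nur77 peak in RA, and Orc6 was the only ORC gene with an FGFR1 peak in LIF (11.9). The 11 promoter peaks of Orc6 also lay in the window of Vps35. The share of all genes with peaks in the libraries common to the 3 ORC genes is not given. Cdc6, the loader of the helicase, had a single peak, in FGFR1 RA replicate 2 (21.2). Cdt1 had 13.4 in RXR LIF, 11.5 and 31.7 in FGFR1 RA and 12.2 in RXR RA, and Gmnn, its inhibitor, had 10.6 in FGFR1 LIF, 12.6 in RXR LIF and 14.0 and 19.8 in FGFR1 RA.

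The CDC25 phosphatases, which remove the inhibitory phosphates from CDKs, all had FGFR1 peaks in both RA libraries and none in FGFR1 LIF. Cdc25a had 12.1 and 15.8 there, 17.7 in RXR LIF and 7.81 in Nur77 RA. Plk1, the polo kinase of mitosis, was listed in FGFR1 RA replicate 2 only (17.6). Aurka had 11.1 in RXR LIF, 8.16 in Nur77 LIF, 25.7 and 21.0 in FGFR1 RA and 12.8 in Nur77 RA, but 6 of its peaks also lay in the promoter window of Cstf1, and 5 of these were nearer to a Cstf1 start. The RXR LIF peak of Aurka was in an intron, 6533 bp downstream of the nearest coding transcript start. Aurkb had peaks in 6 libraries, from 6.14 in Nur77 RA to 24.6 in FGFR1 RA replicate 2, with summits within 114 bp.

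For FGFR1, 35 members (74.5%) had a promoter peak in both RA libraries, against 39.5% of all genes, and 26 of them (55.3%, all genes 24.8%) had none in LIF. These 26 held all 3 CDC25 genes and activating E2Fs, both E cyclins, both DP genes, Mcm5, Mcm7, Orc1 and Orc2. The 9 members with an FGFR1 peak in LIF (Ccnb1, Ccnb2, Cdk1, Cdkn1a, E2f5, Mcm4, Mcm6, Orc6 and Gmnn) had one in both RA libraries too. Most genes did likewise: of 3720 with an FGFR1 peak in LIF, 3480 had one in replicate 1 and 3391 in replicate 2. At Cdkn1a the LIF peak did not overlap a replicate 1 peak. Replicate 1 alone listed Ccnd1, E2f6, Rb1 and Rbl2 (4 members, 8.51%, all genes 11.3%), and replicate 2 alone listed Cdk2, E2f4, Mcm2, Mcm3, Cdc6 and Plk1 (6 members, 12.8%, all genes 10.1%). With summit fragments and background scaled to the read depth of the LIF library, the strongest peaks of 30 of 30 members listed in replicate 1 and not in LIF, and of 30 of 32 in replicate 2, still passed the limit of 5. Scaled by the lowest pileup background instead, 30 of 30 and 29 of 32 passed. Depth was inferred and FGFR1 LIF was 1 library, so the part of depth in this gain was not tested. With the strongest 10634 peaks of each list, FGFR1 was at 9 members in LIF (15.5% of all genes), 13 in RA replicate 1 (18.1%) and 38 in replicate 2 (43.1%), so the replicates differed under this setting. Reading each list only down to 3391 protein-coding genes, a setting chosen after seeing the data that fixes the share of all genes at 15.5%, left 9, 13 and 14 members.

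The FGFR1 replicates did not rank the members listed in both alike. They listed 39 and 41 of the 47 members, so most had to be shared. The 35 shared members therefore do not measure agreement between the replicates. The strongest −log10 p per member was higher in replicate 2 at 31 of the 35, with medians of 13.5 and 29.7. Spearman's rho between the replicates was 0.044 over these 35 genes, and 0.28 over the 8651 genes with a promoter peak in both, points that share their library and its depth. The peaks of 27 of the 35 members (77.1%) overlapped by at least 1 bp between the replicates, against 86.7% of the 8651 genes. The other 8 were Ccne1, E2f1, E2f2, E2f3, E2f8, Mcm5, Cdc25a and Cdc25c.

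**Figure D3:**
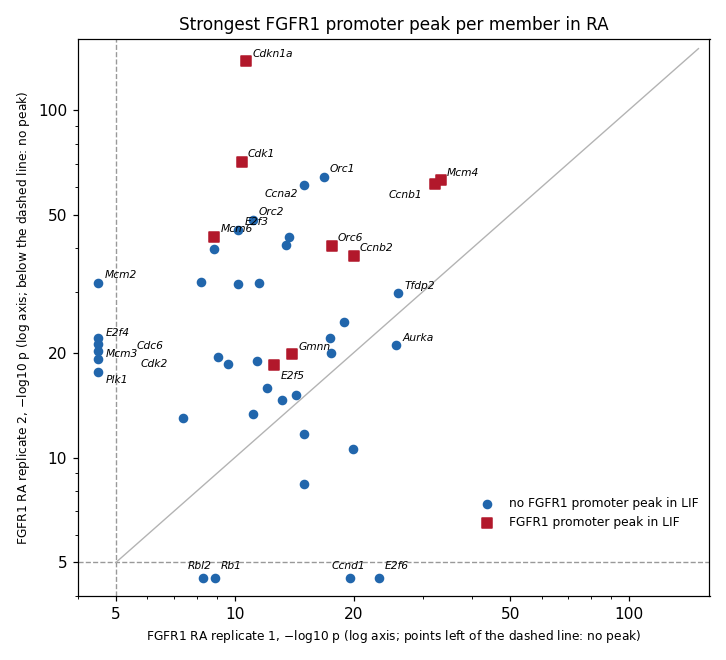
Points are members placed by the −log10 p of their strongest FGFR1 promoter peak in RA replicate 1 and replicate 2 (log axes; points beyond a dashed line have no peak in that replicate). Red squares are the 9 members with an FGFR1 peak in LIF. Most points lie above the diagonal, and Cdkn1a is at 10.7 and 138.

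For RXR, 18 members (38.3%, all genes 23.1%) had a promoter peak in LIF and none in RA, 13 (27.7%, all genes 19.4%) had one in both states, and 1 in RA only. The 18 were Ccnb1, Cdk1, Cdk6, Cdkn2a, Cdkn2c, E2f2, E2f3, E2f6, E2f7, E2f8, Rbl1, Rbl2, Mcm3, Mcm6, Gmnn, Cdc25a, Cdc25c and Aurka. Their strongest LIF peaks had a median −log10 p of 10.9, and those of the 13 kept members 11.5. Scaled to the read depth of the RA library, 15 of the 18 would have fallen under the limit, as would 8 of the 13 that were nevertheless listed in RA. Scaled by the lowest pileup background instead, which also carries the assumed fragment length, these counts were 8 and 4. Loss of RXR at these promoters and the lower depth of the RA library cannot be told apart. RXR peaks in RA overlapped an FGFR1 peak of replicate 1 at 14 of 14 members with both, against 85.1% of all genes, and one of replicate 2 at 10 of 13 (76.9%), against 78.6%. Ccne2, E2f1 and Orc2 were the members without overlap in replicate 2.

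Nur77 changed members more than it changed their number. 9 members (19.1%, all genes 14.1%) had a Nur77 promoter peak in both states, 6 (12.8%, all genes 11.4%) in LIF only and 8 (17.0%, all genes 11.8%) in RA only. Those in LIF only were Ccnb2, E2f6, E2f7, Tfdp2, Rbl1 and Orc2, and those in RA only were Ccnd1, Ccne2, Ccna2, Cdk4, Cdk6, Cdkn2c, Mcm2 and Cdc25a. With 1 library per state, a turnover of this size cannot be told apart from the spread between libraries. The 7 members with an H3.3 peak were the 3 A and B cyclins, both DP genes, Rb1 and Mcm4.

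The 216 promoter peaks of the members were picked by overlap with windows of 1000 bp on either side of a start, so nearness to a start was partly set by the selection. The distances are given without those of all promoter peaks and describe the members only. 177 summits (81.9%) lay within 300 bp of a start of the member and 92 (42.6%) within 100 bp, and 106 (49.1%) were upstream of the nearest start. By the annotation, 79 summits were in an untranslated exon, 74 outside the gene, 32 in a coding exon and 31 in an intron. 39 peaks (18.1%) also lay in the window of another protein-coding gene: Prkdc at Mcm4, Cstf1 at Aurka, Vps35 at Orc6, Prpf38a at Orc1, Ap4m1 at Mcm7, Spef1 at Cdc25b and Pmel at Cdk2. 11 peaks (5.09%) at 3 members (Tfdp1, Tfdp2 and Cdkn1a) held an alternating purine-pyrimidine run of at least 20 bp. Among all promoter peaks of protein-coding genes such peaks made up 0.932% (FGFR1 RA replicate 2) to 7.35% (H3.3 RA), depending on the library. In the whole lists, which also hold peaks away from promoters, they made up 1.26% in FGFR1 RA replicate 2 and 21.1% to 51.7% in the other 7 libraries.

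**Figure D4:**
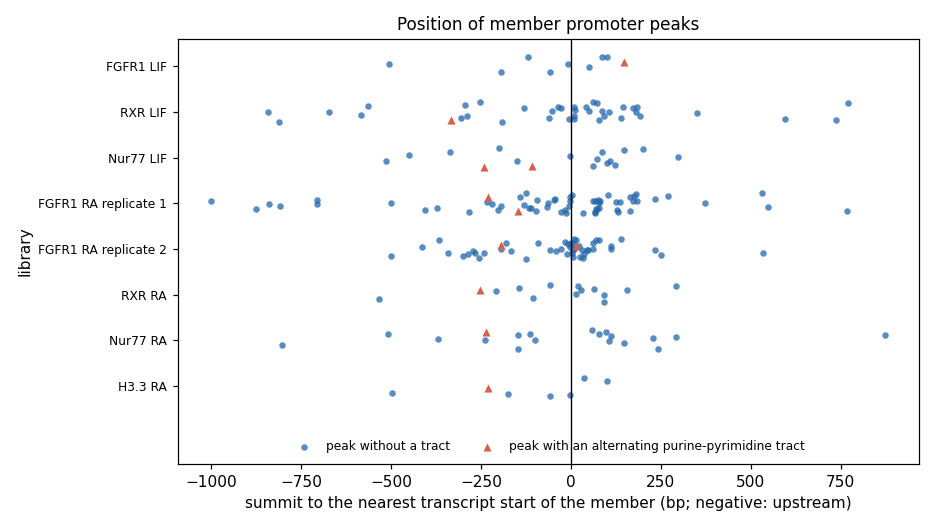
Each point is a member promoter peak, placed by the distance of its summit from the nearest transcript start of the member (bp, negative upstream) in each of the 8 libraries. Red triangles are the 11 peaks with an alternating purine-pyrimidine run. Most points lie within 300 bp of the start in every library.

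Short sequence words were then searched on both strands. E2F words (TTCCCGC or else TTGGCGC, and likewise TTCGCGC or else TTGCCGC) were in the 300 bases at a coding start of 25 members (53.2%), against 17.4% of all genes and 28.4% of CpG-rich genes. CCAAT was found at 35 members (74.5%, all genes 51.5% and CpG-rich genes 53.1%), the cell cycle homology words TTTGAA and TTCGAA at 18 (38.3%, all genes 28.8% and CpG-rich genes 25.2%), and the GC box GGGCGG at 39 (83.0%, all genes 53.2% and CpG-rich genes 82.6%). CRE (TGACGT) was at 9 members (19.1%, all genes 12.4%), the ETS word CCGGAAG at 9 (19.1%, all genes 14.8%) and the E-box CACGTG at 8 (17.0%, all genes 11.6%). Among CpG-rich promoters alone these 3 words were at 19.0%, 21.4% and 14.3% of members against 17.8%, 24.0% and 16.5% of all genes. AGGTCA, the word of nuclear receptors such as RXR and Nur77, was at 11 members (23.4%), near the 24.3% of all genes.

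Around the summits the E2F words were more common at members than at all promoter peaks in the FGFR1 RA libraries. In the 100 bases at the strongest promoter peak, FGFR1 RA had an E2F word at 8 of 39 members in replicate 1 (20.5%, all promoter peaks 7.37%) and at 8 of 41 in replicate 2 (19.5%, all 8.46%). Mcm4, Mcm7, Cdt1 and Cdc25a were in both sets of 8. In RXR LIF the count was 3 of 31 (9.68%, all 6.96%), in RXR RA 1 of 14 (7.14%, all 7.38%) and in Nur77 LIF 1 of 15 (6.67%, all 6.43%). FGFR1 LIF and Nur77 RA had 2 each, of 9 and of 17 (22.2% and 11.8%, all 8.14% and 6.76%), and H3.3 had 1 of 7 (14.3%, all 6.71%). CCAAT was at 7 of 41 members in FGFR1 RA replicate 2 (17.1%, all 7.57%) and at 3 of 39 in replicate 1 (7.69%, all 6.07%). AGGTCA was at 1 of 31 summits in RXR LIF (3.23%, all 3.80%) and 0 of 14 in RXR RA (all 3.50%), and at 0 of 15 in Nur77 LIF (all 4.05%) and 2 of 17 in Nur77 RA (11.8%, all 4.36%).

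**Figure D5:**
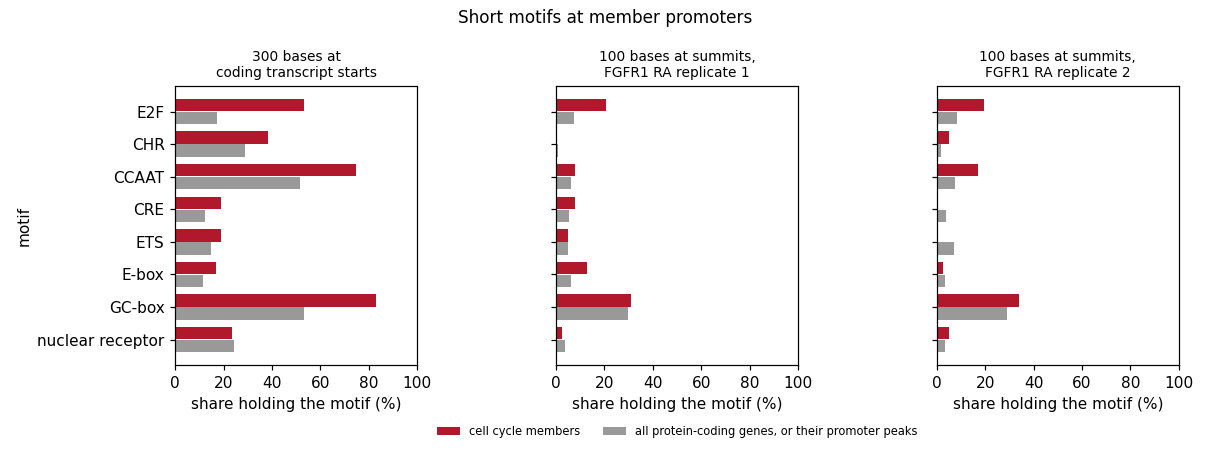
Bars give the percentage of members (red) and of all protein-coding genes or their promoter peaks (grey) that hold each word, in the 300 bases at coding transcript starts and in 100 bases at the strongest promoter peak of the 2 FGFR1 RA libraries. The E2F bars of members are at 53.2%, 20.5% and 19.5%, each above its grey bar.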

How the data were processed

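The authors aligned reads to mm10 with Bowtie 1.0, keeping reads with a single place, and called peaks per library with MACS2 at a p limit of 1e-05, with no control library named. The deposited fold is a ratio of summit pileup to local background, the deposited −log10 p is that of the summit and was used, and the deposited score is 10 times −log10 p without decimals (neither it nor the q-value column was used). Chromosome names and lengths matched GRCm38, and 0 peaks ran past a chromosome end. Promoters were within 1000 bp of any of 141767 GENCODE M21 transcript starts, with an overlap of at least 20 bp. Depth is inferred: fold and −log10 p were solved for whole fragments, within 0.002 for 100% of the peaks tried in each library, and every 10th peak was tried. For depth scaling, summit fragments and background were multiplied by the ratio of the backgrounds per kb of the 2 libraries, with the ratio of the lowest backgrounds as another choice made after seeing the data. CpG content was computed from the genome. Scripts were tested on simulated data. Members, roles, the list of 61 genes and the named genes were chosen with earlier results of these data known. Values in every library were given for members in all or no libraries, the 5 with the highest rank, and named genes of each role. No test was run and no p-value computed, since 6 of 7 groups had 1 library. Alternatives were a −log10 p of at least 10, equal peak numbers, 1 bp overlap, summits, 500 bp windows, coding starts, no alternating-run peaks, each FGFR1 RA replicate left out and, chosen after seeing the data, equal numbers of genes. Python 3.11.15, pandas 2.3.3, scipy 1.17.1 and pysam 0.24.0 were used.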

Additional observations from a re-analysis of the deposited data

Results flagged for a closer look

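The change in the number of members with a promoter peak from LIF to RA pointed in opposite directions for FGFR1 and RXR. It was +30 of the 47 members for FGFR1 with RA replicate 1 and +32 with replicate 2, and −17 for RXR. The difference was not tested. All genes moved the same way, from 17.0% to 50.8% and 49.6% for FGFR1 and from 42.5% to 23.3% for RXR. With equal numbers of peaks per list, RXR was at 12 members in LIF and 8 in RA. FGFR1 was then at 9 in LIF and 13 and 38 in RA. With equal numbers of genes per list, chosen after seeing the data, RXR was at 12 and 11, and FGFR1 at 9, 13 and 14.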

How the results depend on the processing

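Of 130 alternative values, 105 stayed within 1.5 times the reported count and 25 did not. With a −log10 p of at least 10, 20 members had a promoter peak in RXR LIF (42.6%, all genes 25.3%). RXR RA had 6 (12.8%, all genes 10.8%), Nur77 RA 9 (19.1%, all genes 14.0%) and H3.3 RA 2 (4.26%, all genes 7.17%). At this limit 0 members had a peak in all 8 libraries and 2 had none. With equal numbers of peaks per list the counts were 13 and 38 for FGFR1 RA replicates 1 and 2, with a mean of 25.5 (27.7% and 80.9%, all genes 18.1% and 43.1%). FGFR1 LIF had 9 (19.1%, all genes 15.5%). RXR LIF had 12 (25.5%, all genes 14.9%), RXR RA 8 (17.0%, all genes 12.7%) and Nur77 RA 4 (8.51%, all genes 8.36%). In this setting 10 members were in both FGFR1 RA libraries, 6 of them without a LIF peak, 7 had RXR in LIF and not RA, and 3 had no peak. With equal numbers of genes per list, chosen after seeing the data, all genes were held at 15.5%. The member counts were then 13 and 14 for FGFR1 RA (mean 13.5), 12 for RXR LIF, 11 for RXR RA and 10 for Nur77 RA. The sets named for equal peaks held 5, 1, 6 and 15 members here. Shares of all genes in these sets are not given. In both of these settings fewer peaks are read. Without each FGFR1 RA replicate in turn, the mean ran from 39 to 41, members in the remaining RA library from 39 to 41, those of them without a LIF peak from 30 to 32, members in all remaining libraries stayed at 1, and members with no peak ran from 1 to 5, the 5 being without replicate 2. No paired analysis was possible because no compared groups share more than 1 replicate number. A shallow library hides weak peaks, no control library was named, and single libraries give no error.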
